A study of Mus musculus with 27 samples.

Results

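Bile acids and phospholipids reach bile through a small set of transporters in the hepatocyte membrane, and 10 of them were followed here by their symbols in the deposited gene table, which holds 21850 rows. They were Slc10a1, Slco1b2 and Slco1a1 (uptake from blood), Abcb11, Abcc2 and Abcb1a (export into the bile canaliculus), Abcb4 and Atp8b1 (phospholipids of the canalicular membrane), and Abcc3 and Abcc4 (efflux back towards blood). All 10 were found in the table, and all 10 passed the filter on low counts in every comparison.

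The study asked how closely mouse liver cultures keep the properties of the tissue, and 27 bulk RNA-seq libraries in 9 conditions of 3 libraries each were used. Fresh hepatocytes were isolated from C57BL/6 mice and sequenced without culture. Of the 3 fresh libraries, 2 carried the genotype WT, whereas the third was titled WT but had the genotype entry MDR2-het, MDR2 being the protein made from Abcb4. HepOrgs are organoids of adult hepatocytes from wild-type C57BL/6 mice, here at passage 2. They were grown in HM-Wnt, an expansion medium with growth factors (EGF, HGF, FGF7, FGF10), nicotinamide, R-spondin, gastrin, the GSK3 inhibitor CHIR and the TGF-beta receptor inhibitor A83-01, or were switched at that passage to MM, a minimal medium without these, for 1 week (7 days) or 2 weeks (14 days). Wnt-conditioned medium and the ROCK inhibitor Y-27632 were part of both media. Periportal assembloids (genotype WT, C57BL/6) combined 10 HepOrgs with 1000 cholangiocytes and portal mesenchymal cells per well in MM, with 250 mesenchymal cells in homeostasis assembloids and 2500 in fibrosis-like assembloids, collected at 1 week (7 days) or 2.5 weeks (18 days). In the study's methods the added cholangiocytes came from nuc-tdTomato mice and the mesenchyme from PDGFRα-H2B-GFP mice, and the reporter genes tdTomato (0.255 to 103 CPM, counts scaled to a common library size) and eGFP (0.453 to 546 CPM) were present in every assembloid library, whereas elsewhere tdTomato was at 0 and eGFP at 0.0251 or less. The labels did not say whether replicates came from separate mice or cultures, so the p-values measure the spread between these libraries, which may be technical.

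Hepatocytes are polarised cells. They take up bile acids from sinusoidal blood on the basolateral side, chiefly through the sodium-coupled carrier NTCP (Slc10a1) and through organic anion carriers of the Slco family, and they secrete them into the canaliculus through the bile salt export pump BSEP (Abcb11). MRP2 (Abcc2) exports conjugates such as bilirubin glucuronides, MDR2 (Abcb4) flips phosphatidylcholine to the outer leaflet so that it can be carried off in bile, and the flippase ATP8B1 keeps the lipid asymmetry that protects the canalicular membrane. When bile flow is blocked, MRP3 (Abcc3) and MRP4 (Abcc4) are known as basolateral routes by which bile acid conjugates leave the cell. P-glycoprotein, encoded in mice by Abcb1a and the related gene Abcb1b, exports lipophilic drugs.

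Genes are placed on the mouse genome build GRCm39. Abcb11 lies at chr2:69068544-69173315 on the minus strand, Slc10a1 at chr12:80996372-81015479 (minus), Slco1b2 at chr6:141575179-141633546 (plus) and Slco1a1 at chr6:141853007-141892690 (minus). Abcb4 lies at chr5:8943604-9011999 (plus), Abcb1a at chr5:8710022-8798575 (plus), Abcc2 at chr19:43770631-43829179 (plus), Abcc3 at chr11:94233874-94283823 (minus) and Abcc4 at chr14:118720103-118943924 (minus). All 10 are protein-coding genes, and their lengths in the deposited table equalled 81.2% to 100.0% of the annotated span, introns included, so the counts may hold intronic reads. The Abcb4 gene shares 26074 bases with Crot on the opposite strand, and Slc10a1 shares 1259 bases with Srsf5. SMARTseq2 does not mark the strand, so reads in these stretches cannot be assigned to 1 partner.

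The 250 bases before the transcript start are printed for 4 of the members whose level differed strongly between fresh hepatocytes and cultures, in the direction of transcription and ending at the base before the start. Capitals mark the letters closest to a nuclear receptor motif.
Abcb11, chr2:69173316-69173565 (- strand): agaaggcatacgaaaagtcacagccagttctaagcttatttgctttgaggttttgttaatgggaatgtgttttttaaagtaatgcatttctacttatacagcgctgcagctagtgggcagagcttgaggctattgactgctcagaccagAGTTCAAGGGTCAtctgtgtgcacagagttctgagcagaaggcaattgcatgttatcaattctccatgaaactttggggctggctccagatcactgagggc
Slco1b2, chr6:141574929-141575178 (+ strand): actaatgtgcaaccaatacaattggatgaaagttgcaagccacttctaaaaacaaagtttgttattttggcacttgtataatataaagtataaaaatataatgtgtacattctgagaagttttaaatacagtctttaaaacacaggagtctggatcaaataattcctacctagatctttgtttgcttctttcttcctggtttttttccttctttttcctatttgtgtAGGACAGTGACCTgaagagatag
Slco1a1, chr6:141892691-141892940 (- strand): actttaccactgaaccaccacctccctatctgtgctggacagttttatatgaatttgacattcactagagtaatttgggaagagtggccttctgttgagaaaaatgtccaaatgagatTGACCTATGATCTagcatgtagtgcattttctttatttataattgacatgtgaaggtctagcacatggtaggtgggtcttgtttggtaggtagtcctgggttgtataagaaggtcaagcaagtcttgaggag
Abcc4, chr14:118943915-118944164 (- strand): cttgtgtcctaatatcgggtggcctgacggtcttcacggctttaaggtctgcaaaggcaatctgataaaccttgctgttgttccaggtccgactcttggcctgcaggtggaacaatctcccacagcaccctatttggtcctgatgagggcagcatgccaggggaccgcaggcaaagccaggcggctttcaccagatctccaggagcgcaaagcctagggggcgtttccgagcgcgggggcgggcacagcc

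The windows were searched on both strands for the inverted repeat AGGTCA, any base, TGACCT (the form bound by the bile acid receptor FXR with RXR), the direct repeat AGGTCA, any base, AGGTCA (the form bound by HNF4 and related receptors) and the HNF1 site GTTAAT, any base, ATTAAC, each with up to 2 mismatches, and for the antioxidant response core TGACNNNGC without mismatch. The 6-base site AGGTCA is shared by the first 2 motifs. Among 21260 promoters of the same length, 1.19% held the inverted repeat, 2.94% the direct repeat, 1.19% the HNF1 site and 9.71% the antioxidant core. In Slco1b2 the stretch AGGACAGTGACCT, from -23 to -11 before the start, matched the inverted repeat with 1 mismatch. In Abcb11 the stretch AGTTCAAGGGTCA, from -101 to -89, matched the direct repeat with 2 mismatches, and in Slco1a1 the stretch TGACCTATGATCT, from -132 to -120, matched it on the opposite strand with 1 mismatch. None of the 4 motifs was found in the Abcc4 window or in those of Abcb4, Abcc2, Abcc3, Abcb1a and Slc10a1. A match of letters is a description and shows no binding.

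Depth was between 30289364 and 65348596 counts per library, and 14016 to 16018 genes were detected in 26 of the 27 libraries. Homeostasis assembloid replicate 2 at 1 week held 8465. This library had 3107 CPM over 9 hepatocyte markers, against 22610.2 to 72707 in HepOrgs, and 6350.0 CPM over 6 cholangiocyte markers, against 53.1 to 191. A further 2 assembloid libraries stood apart in the same way: fibrosis-like replicate 3 at 1 week had 3153 CPM of hepatocyte and 4489 CPM of cholangiocyte markers, and fibrosis-like replicate 2 at 2.5 weeks had 11861 and 4217 CPM. For each comparison in assembloids, the count of transporters called is therefore given with and without these 3 libraries. They were chosen after seeing the data, by markers that ran with or against most transporters in assembloids. The p-values without them are therefore descriptive. Fresh hepatocytes had 69727 to 127267 CPM of hepatocyte markers and carried more endothelial markers (46.7 to 214 CPM over 8 genes) than HepOrgs (1.45 to 6.68). The hepatocyte, cholangiocyte and mesenchymal lists follow the study's own marker genes and are no independent evidence of identity. The member Abcb4 was left out of the hepatocyte list. All levels below are CPM after trimmed-mean (TMM) scaling over the 27 libraries.

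**Figure D1:**
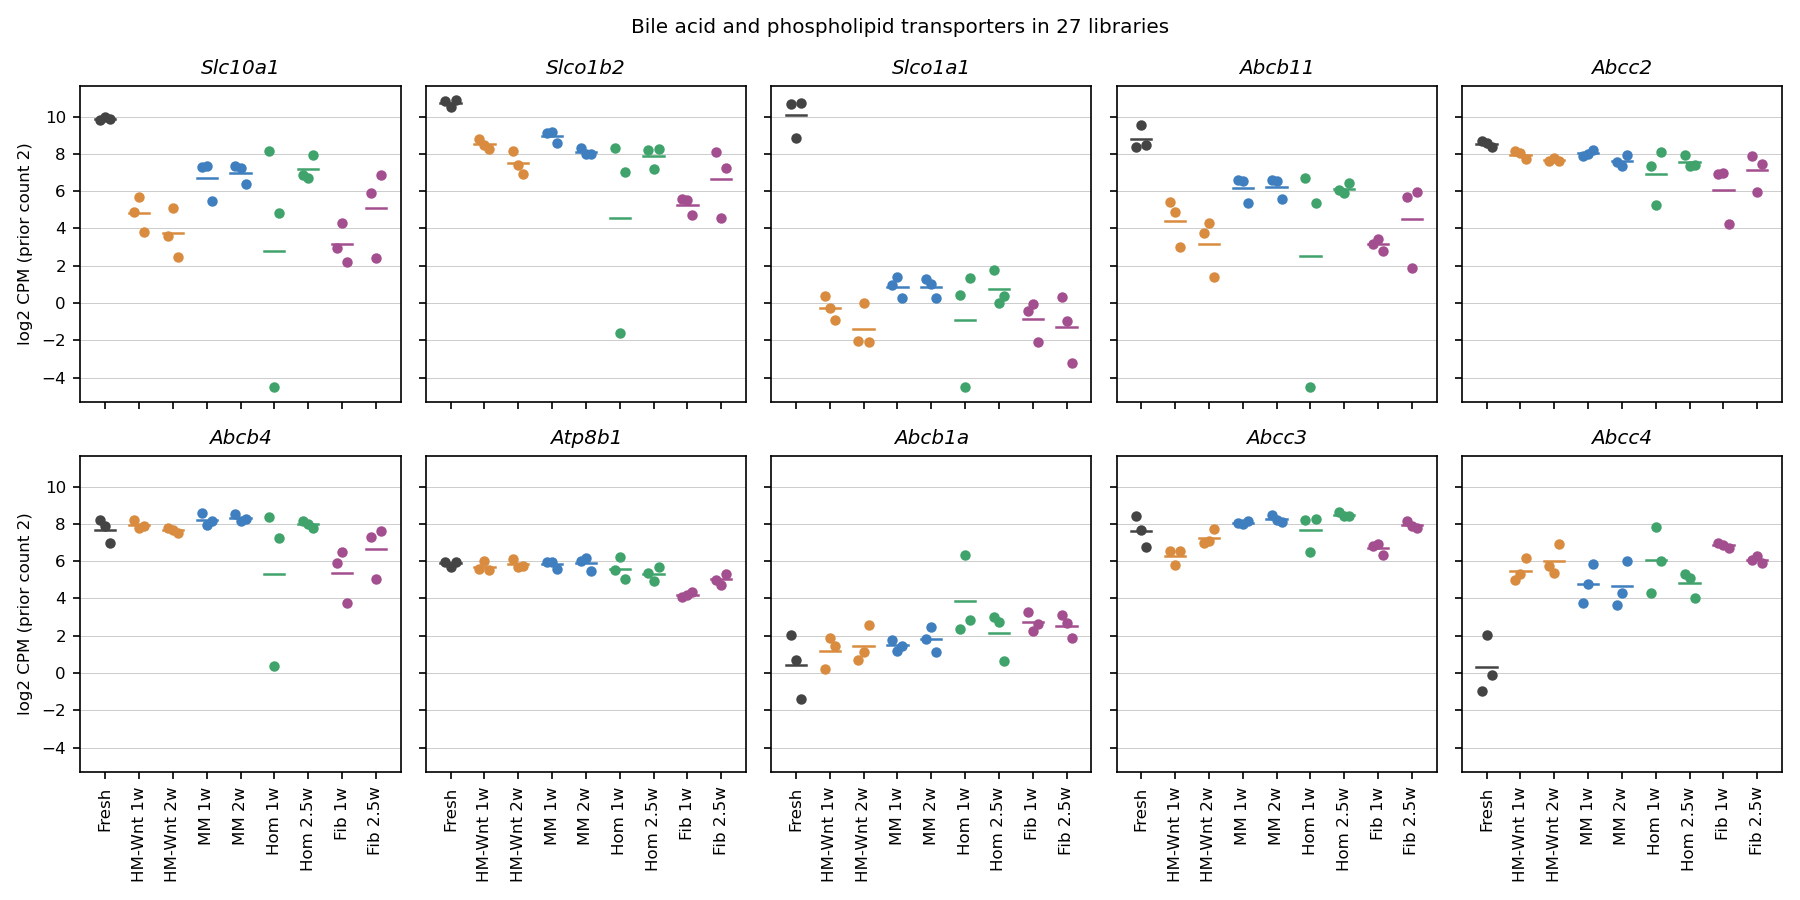
Level of each transporter in every library, as log2 CPM with a prior count of 2, by condition (points, libraries; lines, means of 3). The 3 uptake carriers and Abcb11 sit highest in fresh hepatocytes, Abcc4 sits lowest there, and homeostasis assembloid replicate 2 at 1 week lies far below the other libraries for Slc10a1, Slco1b2, Abcb11 and Abcb4.

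Uptake carriers fell in HepOrgs of both media and at both times. The estimated fall was smaller for Slco1b2 than for Slc10a1, though only slightly in MM at 2 weeks. Slco1a1 fell almost to nothing. Slc10a1 stood at 898, 1013 and 943 CPM in the 3 fresh libraries. It was 29.5, 51.2 and 14.2 CPM in HM-Wnt HepOrgs at 1 week and 12.2, 34.8 and 5.53 at 2 weeks. MM HepOrgs held 156, 161 and 44.2 CPM at 1 week and 164, 149 and 84.5 at 2 weeks. No HepOrg library reached the fresh range, and the decrease was 55.6-fold in HM-Wnt at 2 weeks (edgeR log2 fold change -5.80, SE 0.76, adjusted p = 4.02e-05) and 7.29-fold in MM at 2 weeks (log2 fold change -2.87, SE 0.66, adjusted p = 0.00401). At 1 week it was 30.9-fold in HM-Wnt (log2 fold change -4.95, SE 0.73, adjusted p = 0.000117) and 8.0-fold in MM (log2 fold change -3.00, SE 0.67, adjusted p = 0.00294). Srsf5, which overlaps the gene, was 297, 153 and 132 CPM in fresh hepatocytes and 171 to 288 in HepOrgs. In bulk RNA a lower level can come from fewer cells of a type or from less RNA per cell, which cannot be told apart.

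Slco1b2, which encodes the liver carrier OATP1B2 for bile acids and other organic anions, stood at 1804, 1488 and 1876 CPM in fresh hepatocytes, and at 451, 358 and 306 CPM in HM-Wnt and 552, 584 and 384 in MM at 1 week. At 2 weeks it was 289, 169 and 120.0 CPM in HM-Wnt and 320.2, 255 and 252 in MM. The 12 HepOrg libraries lay below all fresh ones, and the edgeR log2 fold changes were -2.25 (adjusted p = 5.36e-05), -3.18 (adjusted p = 3.82e-06), -1.78 (adjusted p = 0.000391) and -2.66 (adjusted p = 2.22e-05) for HM-Wnt at 1 and 2 weeks and MM at 1 and 2 weeks. Slco1a1, an organic anion carrier of mouse liver, showed the largest difference of the 10 genes. It was 1641, 463 and 1710.4 CPM in fresh hepatocytes, where replicate 2 was the lowest, and 0.193 to 2.62 CPM over the 12 HepOrg libraries. The highest HepOrg library held 97 Slco1a1 counts, and the fitted decrease was 678-fold in MM at 1 week (log2 fold change -9.41, SE 0.79, adjusted p = 1.55e-06) and 2838-fold in HM-Wnt at 2 weeks (log2 fold change -11.47, SE 0.86, adjusted p = 4.30e-07).

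Among canalicular exporters, the bile salt export pump fell in every HepOrg condition, whereas Abcc2 fell by less than 2-fold on the CPM scale and Abcb1a was low throughout. Abcb11 was 336, 756 and 359.9 CPM in fresh hepatocytes and replicate 2 was the highest. In HM-Wnt HepOrgs it was 42.6, 29 and 7.87 CPM at 1 week and 13.7, 19.7 and 2.61 at 2 weeks. MM HepOrgs had 96.8, 92.6 and 41.4 and 96.4, 92.3 and 47.5 CPM. All 12 values lay below the fresh range. The decrease against fresh hepatocytes was 18.8-fold (log2 fold change -4.24, SE 0.76, adjusted p = 0.000522) and 41.4-fold (log2 fold change -5.37, SE 0.80, adjusted p = 0.000114) in HM-Wnt at 1 and 2 weeks by edgeR. In MM it was 6.4-fold (log2 fold change -2.68, SE 0.71, adjusted p = 0.0084) and 6.27-fold (log2 fold change -2.65, SE 0.71, adjusted p = 0.00931).

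Abcc2 was 414, 383 and 327 CPM in fresh hepatocytes and 165 to 297 CPM over the HepOrg libraries. No HepOrg library reached the lowest fresh one. Its edgeR log2 fold changes were -0.62 (adjusted p = 0.0111) and -0.91 (adjusted p = 0.00094) in HM-Wnt, and -0.54 (adjusted p = 0.026) and -0.93 (adjusted p = 0.00118) in MM, at 1 and 2 weeks. On the log2(TPM + 1) scale, tested with limma, Abcc2 did not pass in any of the 4 comparisons and its log2 fold change was 0.08 in MM at 1 week, but that scale moved the median of all genes up by 0.47 to 0.75 against fresh hepatocytes. Abcb1a stayed between 0.334 and 5.89 CPM in fresh hepatocytes and HepOrgs. The 95% interval of its log2 fold change in MM at 2 weeks was -0.65 to 2.46, which leaves a change of several fold unresolved at this level. Some reads from Abcb1a may also match its related gene Abcb1b, which was not checked.

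On the CPM scale, with all libraries and without a replicate block, no difference in the phospholipid genes passed between HepOrgs and fresh hepatocytes. Abcb4 was 299, 234 and 127 CPM in fresh hepatocytes, the lowest value being that of the library labelled MDR2-het. It was 301, 220.4 and 233 CPM in HM-Wnt at 1 week, 223, 205 and 183 at 2 weeks, and 380.0, 244 and 284 and 371, 288 and 301 in MM. The ranges overlapped in all 4 comparisons. In HM-Wnt, the edgeR log2 fold change was 0.16 (adjusted p = 0.641) at 1 week, with a 95% interval of -0.42 to 0.74, and -0.13 (adjusted p = 0.71) at 2 weeks, with an interval of -0.70 to 0.45. In MM it was 0.44 (adjusted p = 0.201), interval -0.14 to 1.02, and 0.52 (adjusted p = 0.137), interval -0.05 to 1.10. Without the library labelled MDR2-het these 4 values were -0.10 (adjusted p = 0.739), -0.40 (adjusted p = 0.167), 0.18 (adjusted p = 0.565) and 0.27 (adjusted p = 0.391). Without fresh replicate 1 the value in MM at 2 weeks was 0.82 (adjusted p = 0.0414) and passed the threshold. On the log2(TPM + 1) scale, with its shifted median, Abcb4 was higher in HepOrgs in all 4 comparisons by limma, with log2 fold changes of 0.72 (adjusted p = 0.0361) and 0.73 (adjusted p = 0.0267) in HM-Wnt and 1.06 (adjusted p = 0.00512) and 1.06 (adjusted p = 0.00629) in MM. Crot, a carnitine acyltransferase gene that overlaps Abcb4, was 741, 617 and 1047 CPM in fresh hepatocytes, and the library lowest in Abcb4 was the highest in Crot.

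Atp8b1 was 63, 51.7 and 63 CPM in fresh hepatocytes, and the 12 HepOrg libraries lay between 44.8 and 71.9 CPM, around the fresh values. Its edgeR log2 fold changes ranged from -0.20 to 0.01 over the 4 comparisons, and the widest 95% interval was -0.65 to 0.25 in HM-Wnt at 1 week. On the log2(TPM + 1) scale, with its shifted median, all 4 were above 0 and 3 passed by limma, HM-Wnt at 2 weeks (0.56, adjusted p = 0.00303) and MM at 1 and 2 weeks (0.39, adjusted p = 0.0306, and 0.35, adjusted p = 0.0498).

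The 2 basolateral efflux pumps went different ways. Abcc4 rose in every HepOrg condition, from a low level. It was 0.462, 4.01 and 0.881 CPM in fresh hepatocytes (17, 94 and 29 counts), and 32, 39.9 and 71.6 CPM in HM-Wnt at 1 week and 53.6, 41.2 and 122 at 2 weeks. The MM values were 13.3, 27.9 and 58 and 12.4, 19.4 and 64.5 CPM. The lowest HepOrg library was about 3 times the highest fresh one, and replicate 3 was the highest in all 4 HepOrg conditions. The increase was 27-fold (log2 fold change 4.75, SE 0.92, adjusted p = 0.000874) and 41.3-fold (log2 fold change 5.37, SE 0.94, adjusted p = 0.00039) in HM-Wnt, and 18.7-fold (log2 fold change 4.23, SE 0.90, adjusted p = 0.0022) and 18.2-fold (log2 fold change 4.19, SE 0.90, adjusted p = 0.00244) in MM, by edgeR. On the log2(TPM + 1) scale, which understates changes of low genes, Abcc4 did not pass in MM (0.93, adjusted p = 0.0554, at 1 week and 0.83, adjusted p = 0.093, at 2 weeks, limma).

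Abcc3 was 337, 203 and 109.7 CPM in fresh hepatocytes, a 3-fold spread. It was 92.1, 55.9 and 91.8 CPM in HM-Wnt at 1 week, below all fresh libraries (edgeR log2 fold change -1.47, SE 0.34, adjusted p = 0.00303). At 2 weeks in HM-Wnt it was 127, 135 and 214 CPM, within the fresh range (log2 fold change -0.46, SE 0.33, adjusted p = 0.264). Without fresh replicate 3 that value was -0.78 (adjusted p = 0.0395). In MM it was 264, 251 and 288 and 355, 295 and 272 CPM at 1 and 2 weeks, with log2 fold changes of 0.29 (adjusted p = 0.51) and 0.49 (adjusted p = 0.264). Without fresh replicate 1 the value in MM at 2 weeks was 0.96 (adjusted p = 0.0337). On the log2(TPM + 1) scale by limma the decrease in HM-Wnt at 1 week did not pass (-0.78, adjusted p = 0.0914), and the values in MM did (1.00, adjusted p = 0.036, and 1.08, adjusted p = 0.029).

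**Figure D2:**
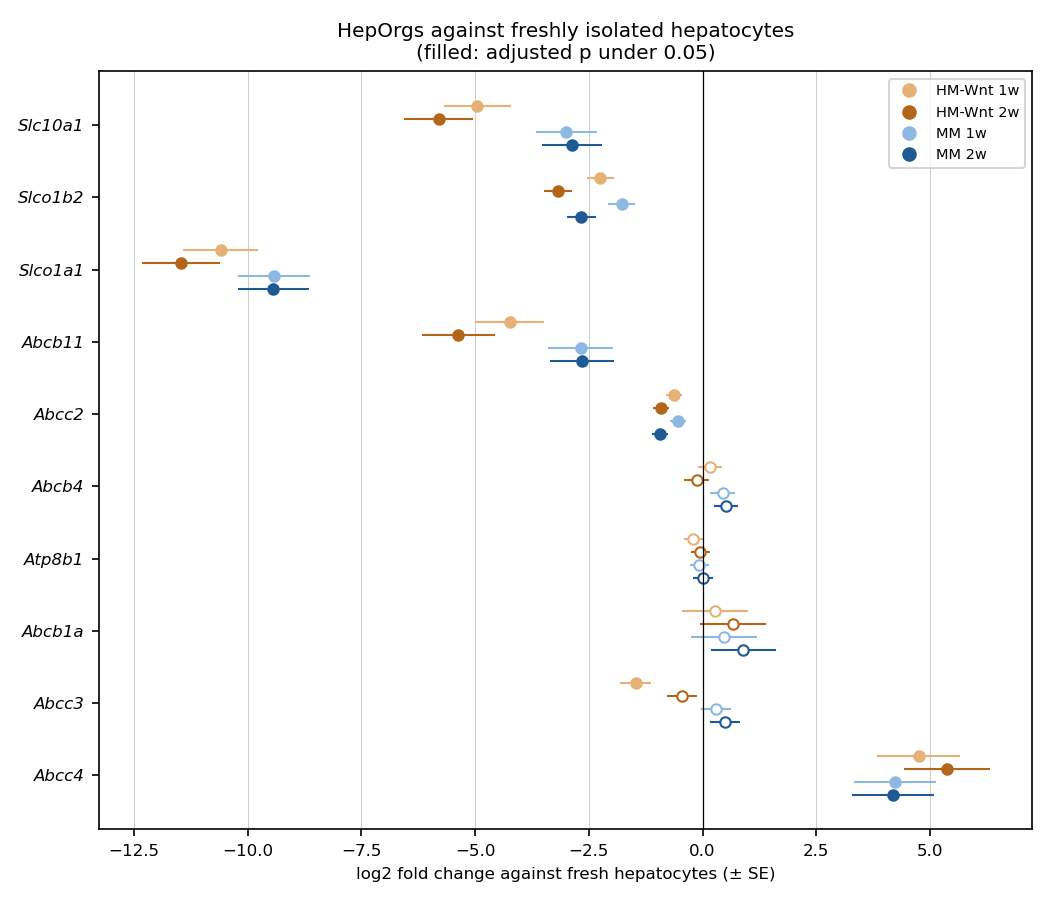
Log2 fold change of each transporter in HepOrgs against fresh hepatocytes (points, edgeR estimate; bars, 1 SE; filled, adjusted p under 0.05), in 2 media at 2 times. Slco1a1 lies between -11.47 and -9.41, Abcc4 between 4.19 and 5.37, and Abcb4, Atp8b1 and Abcb1a have open points, none beyond 0.90 in size.

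By count, 7 of the 10 transporters passed the threshold in HM-Wnt at 1 week, 6 lower and 1 higher, where 6666 of 13405 genes, 49.7%, passed in all, 24.8% lower and 24.9% higher. In HM-Wnt at 2 weeks 6 of 10 passed (6942 of 13405 genes, 51.8%). In MM at 1 week 6 of 10 passed (5738 of 13405 genes, 42.8%), and at 2 weeks again 6 of 10 (5321 of 13405 genes, 39.7%). The median log2 fold change of the 10 was -1.04, -0.68, -0.30 and -0.46, beside 0.02, 0.03, 0.00 and -0.01 over all genes tested. The 4 comparisons share the fresh libraries. The Abcc2 call rested on small differences: in MM at 1 week it was lost without fresh replicate 1 or 2 or without MM replicate 1 or 2 (adjusted p = 0.0599 to 0.102), and in HM-Wnt at 1 week without HM-Wnt replicate 3 (adjusted p = 0.0529), all by edgeR. A fit over all 27 libraries, whose shared spread includes the assembloids, called 2 of 10 in MM at either time (Abcc4 and Slco1a1). In that fit 2005 of 14655 genes, 13.7%, passed in MM at 1 week and 1890 of 14655 genes, 12.9%, at 2 weeks. Its log2 fold changes at 1 week were -2.67 for Abcb11 and -2.99 for Slc10a1. Over all genes, 24.8%, 25.7%, 21.3% and 20% were lower and 24.9%, 26.1%, 21.5% and 19.7% higher in these 4 comparisons. Beside these results, summed hepatocyte markers were 28082 to 58788 CPM in HM-Wnt and 22610.2 to 72707 in MM, against 69727 to 127267 in fresh hepatocytes, and immune markers over 10 genes were 41.1 to 398 CPM in fresh and 7.78 to 771 in HepOrg libraries, the highest being MM replicate 3 at 2 weeks. Cholangiocyte markers summed to 12.1 to 27.9 CPM in fresh and, without overlap, 53.1 to 191 in HepOrg libraries, and mesenchymal markers over 9 genes to 6.9 to 45.4 and 36 to 237. Their part in the result was not tested.

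HepOrgs in MM held more Abcc3 than HepOrgs in the expansion medium at both times and, at 2 weeks, more Abcb11 and Slc10a1. At 1 week the values of Abcc3 given above did not overlap between media, and it was 3.35-fold higher in MM (edgeR log2 fold change 1.74, SE 0.25, adjusted p = 0.00817). It was the single transporter of 10 to pass, where 387 of 12989 genes, 2.98%, passed in all. At 2 weeks 3 of 10 passed (1488 of 12989 genes, 11.5%). Abcb11 was 6.64-fold higher in MM (log2 fold change 2.73, SE 0.72, adjusted p = 0.0335), Slc10a1 was 7.65-fold higher (log2 fold change 2.94, SE 0.71, adjusted p = 0.024) and Abcc3 was 1.95-fold higher (log2 fold change 0.96, SE 0.24, adjusted p = 0.0286). For all 3 the lowest MM library lay above the highest HM-Wnt library. On the log2(TPM + 1) scale by limma, Abcc3 at 2 weeks did not pass (0.65, adjusted p = 0.168). That scale moved the median of all genes by -0.3 in this comparison.

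HepOrg libraries with the same replicate number deviated together, and with that number as a block in the fit, 3 of 10 passed at 1 week and 6 of 10 at 2 weeks, where 1232 of 12989 genes, 9.48%, and 2544 of 12989 genes, 19.6%, passed in all. At 1 week Abcb11 (log2 fold change 1.73, SE 0.33, adjusted p = 0.0139) and Slc10a1 (log2 fold change 1.92, SE 0.32, adjusted p = 0.00783) joined Abcc3 in the blocked edgeR fit, having been 1.54 (adjusted p = 0.216) and 1.94 (adjusted p = 0.131) without it. At 2 weeks Abcb4 (log2 fold change 0.66, SE 0.13, adjusted p = 0.00647) and Slco1a1 (log2 fold change 2.21, SE 0.51, adjusted p = 0.0143) were higher in MM, and Abcc4 was lower (log2 fold change -1.36, SE 0.28, adjusted p = 0.00739). In each of the 3 replicate numbers Abcc4 at 2 weeks was lower in MM than in HM-Wnt, and Abcb4 was higher. Slco1b2 (95% interval -0.12 to 1.19), Abcc2 (-0.41 to 0.38), Atp8b1 (-0.41 to 0.54) and Abcb1a (-0.94 to 1.42) did not pass in either fit.

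**Figure D3:**
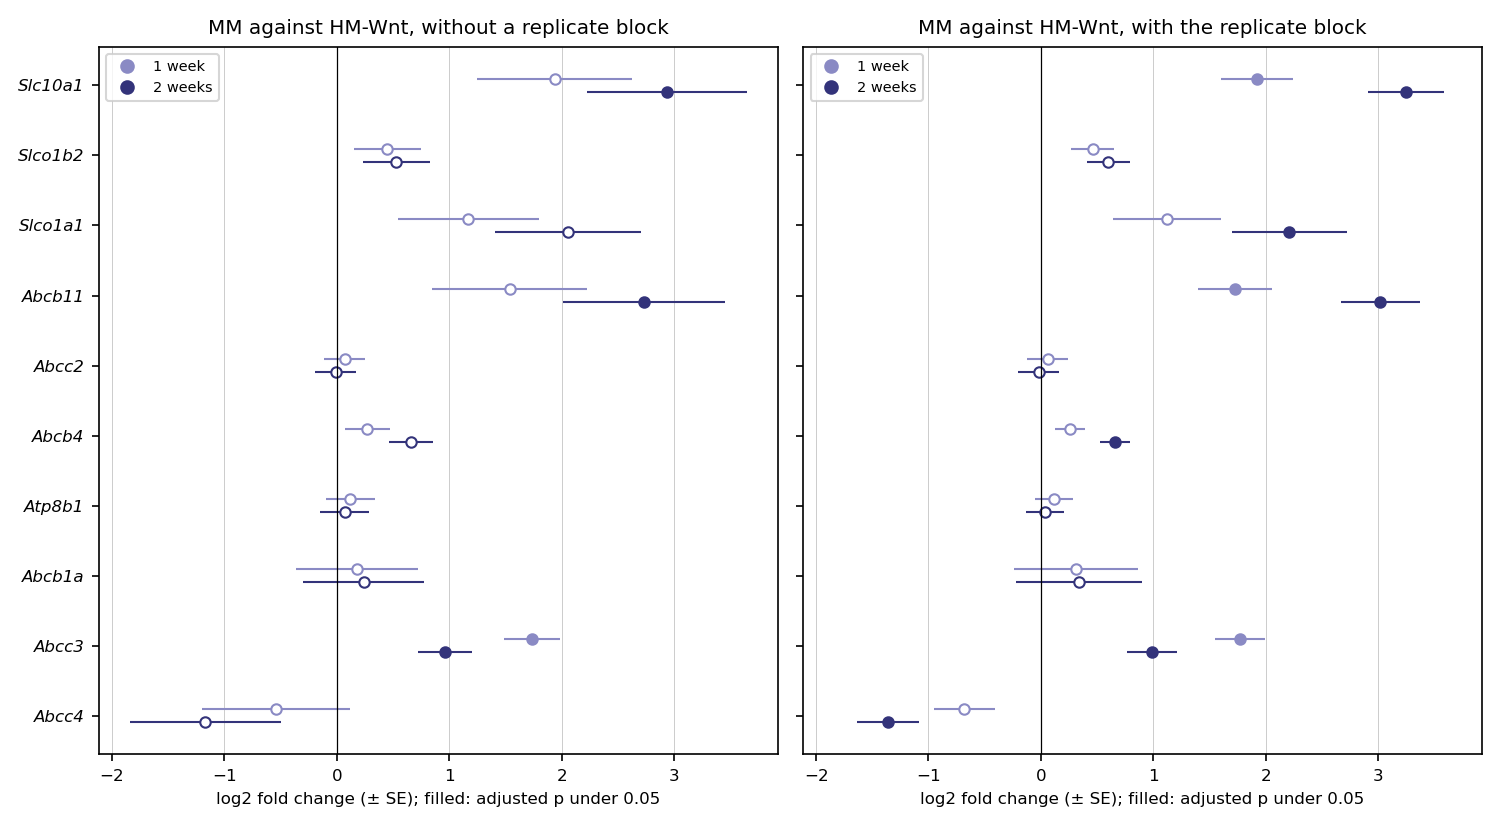
Log2 fold change of each transporter in MM against HM-Wnt HepOrgs at 1 and 2 weeks (points, edgeR estimate; bars, 1 SE; filled, adjusted p under 0.05), without and with the replicate number as a block. Estimates change little between panels while the error bars of Slc10a1, Abcb11 and Abcc4 shorten, and filled points go from 1 to 3 at 1 week and from 3 to 6 at 2 weeks.

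Whether the effect of the medium differed between 2 weeks and 1 week was tested directly, and no transporter passed. The difference was 1.19 for Abcb11 (log2, adjusted p = 0.721), 1.00 for Slc10a1 (0.755) and -0.78 for Abcc3 (0.671; unadjusted p = 0.0435) by edgeR. Of 12989 genes, 0 passed by edgeR, 951 had an unadjusted p under 0.05, and DESeq2 called 46, none of them a member. The media calls at 2 weeks also depended on single libraries: without HM-Wnt replicate 1, MM replicate 1 or MM replicate 2, 0 of 10 passed, and without HM-Wnt replicate 3, 1 of 10. With all libraries 11.5% of all genes passed. The share without each library is not given, so the loss cannot be called particular to the transporters. Whichever of the 6 libraries was left out, the log2 fold change stayed between 2.51 and 3.91 for Slc10a1. It stayed between 2.26 and 3.28 for Abcb11 and between 0.83 and 1.25 for Abcc3. Marker sums in MM beside HM-Wnt were 22610.2 to 72707 against 28082 to 58788 CPM for hepatocytes and 53.1 to 134 against 58.3 to 191 CPM for cholangiocytes. Mesenchymal markers were 237, 116 and 121 CPM in MM against 42.5, 46.7 and 103 in HM-Wnt at 1 week, without overlap, and 92.1, 86.2 and 217 against 43.3, 36 and 128 at 2 weeks, higher in MM for each replicate number. The part of these markers was not tested.

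In assembloids at 1 week most transporters spread widely between replicates. Abcb11 was 104, 0 and 40.8 CPM in the 3 homeostasis libraries, Slc10a1 281, 0 and 28.4, and Abcb4 335, 1.23 and 154. Replicate 2, the library with few hepatocyte markers, held 0 counts of Abcb11, Slc10a1 and Slco1a1, 14 of Slco1b2 and 60 of Abcb4. It was also the highest of all 27 libraries in Abcc4 (19.5, 231 and 63.3 CPM over the 3) and in Abcb1a (5.13, 80.4 and 7.14). In the fibrosis-like libraries at 1 week Abcb11 was 9.09, 10.7 and 6.94 CPM, Slc10a1 7.6, 19.7 and 4.56 and Slco1b2 48.3, 45.9 and 26.2. For Abcb4 they gave 60.2, 90.5 and 13.5 CPM, for Abcc2 120.5, 126 and 18.6 and for Atp8b1 16.8, 18 and 20.2. All of these fibrosis-like values lay below those of MM HepOrgs at 1 week, whereas Abcc4, at 125, 118 and 104 CPM, lay above them.

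Against MM HepOrgs at 1 week, 1 of the 10 transporters passed in fibrosis-like assembloids, Atp8b1, which was 3.05-fold lower (edgeR log2 fold change -1.61, SE 0.29, adjusted p = 0.0191), where 416 of 14605 genes, 2.85%, passed in all. Its call was lost without MM replicate 1, 2 or 3 or fibrosis-like replicate 1 or 3 (adjusted p = 0.0553 to 0.0768), with log2 fold changes of -1.73 to -1.56. On the log2(TPM + 1) scale by limma Atp8b1 did not pass either (-0.48, adjusted p = 0.214). That scale moved the median of all genes by 0.77 here. Slco1b2 (log2 fold change -3.62, SE 1.23, adjusted p = 0.098), Abcc3 (log2 fold change -1.31, SE 0.41, adjusted p = 0.08), Slc10a1 (log2 fold change -3.47, SE 1.55, adjusted p = 0.2) and Abcb11 (log2 fold change -3.07, SE 1.36, adjusted p = 0.192) did not pass. Neither did Abcb4 (log2 fold change -2.43, adjusted p = 0.191) or Abcc2 (log2 fold change -1.53, adjusted p = 0.184). Without the 3 libraries high in cholangiocyte markers, chosen after seeing the data, 7 of 10 passed (4034 of 14754 genes, 27.3%). All 7 were lower, where 15.1% of genes were lower. The members called were Slco1b2 (log2 fold change -3.49, SE 0.44, adjusted p = 0.000303), Abcb11 (log2 fold change -3.02, SE 0.53, adjusted p = 0.00145), Abcb4 (log2 fold change -2.06, SE 0.38, adjusted p = 0.00202), Slc10a1 (log2 fold change -3.20, SE 0.86, adjusted p = 0.0139), Atp8b1, Abcc3 and Abcc2. In a fit of only the 2 groups compared, with all their libraries, 8 of 10 passed (3434 of 13467 genes, 25.5%). Of these, Abcc4 (log2 fold change 1.83, adjusted p = 0.0404) and Abcb1a (log2 fold change 1.29, adjusted p = 0.0438) were higher. The rest were lower, where 10.9% of all genes were lower and 14.6% higher.

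Between homeostasis assembloids and MM HepOrgs at 1 week, 0 of 10 transporters passed by edgeR, with 0 of 14605 genes called in all and 2344 at an unadjusted p under 0.05. DESeq2 called 1150 genes, 7.87%, among them Abcb1a (log2 fold change 3.43, adjusted p = 0.00485). That gene was 3.41, 2.24 and 2.7 CPM in MM, and by edgeR its log2 fold change was 3.35 (adjusted p = 0.118) with all libraries, 3.85 (adjusted p = 0.0239) without homeostasis replicate 1, and 1.13 (adjusted p = 0.482) without the 3 libraries. Without those 3 the intervals stayed wide enough that Abcb11 (log2 fold change -0.11, SE 0.46, adjusted p = 0.938) and Slc10a1 (log2 fold change 0.34, SE 0.74, adjusted p = 0.851) could lie above or below MM, and again 0 of 10 passed (85 of 14754 genes, 0.576%). The log2 fold changes of the other members were, with all libraries and then without the 3, -1.79 and -1.20 for Slco1b2, -0.92 and -0.33 for Abcb4, -0.75 and -0.28 for Abcc2, -0.59 and 0.01 for Slco1a1, -0.23 and 0.18 for Abcc3, -0.24 and -0.57 for Atp8b1 and 1.56 and 0.32 for Abcc4.

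The direct comparison of fibrosis-like with homeostasis assembloids at 1 week called 0 of 10 transporters and 0 of 14253 genes by edgeR, with 2012 at an unadjusted p under 0.05, and DESeq2 called 867 genes, 6.08%, among them Atp8b1 (log2 fold change -1.47, adjusted p = 0.00844). Without the 3 libraries, chosen after seeing the data, 6 of 10 passed, all lower in fibrosis-like assembloids (2548 of 14358 genes, 17.7%, 10.2% lower). They were Abcc3 (log2 fold change -1.33, SE 0.18, adjusted p = 0.00558), Abcb11 (log2 fold change -2.80, SE 0.40, adjusted p = 0.0067), Abcb4 (log2 fold change -1.64, SE 0.35, adjusted p = 0.0187), Slco1b2 (log2 fold change -2.18, SE 0.50, adjusted p = 0.024), Atp8b1 (log2 fold change -1.11, SE 0.27, adjusted p = 0.0271) and Slc10a1 (log2 fold change -3.44, SE 1.00, adjusted p = 0.048), with 2 libraries left in each group. With all libraries none of these 6 passed. Their edgeR log2 fold changes were -1.14 for Abcc3, -2.44 for Abcb11, -1.58 for Abcb4, -1.89 for Slco1b2, -1.43 for Atp8b1 and -3.28 for Slc10a1. The adjusted p ran from 0.271 (Atp8b1) to 0.64 (Abcb4). The members that passed in neither fit had log2 fold changes of -0.83 and -0.77 for Abcc2, -1.07 and -1.18 for Slco1a1, 0.22 and 1.59 for Abcc4 and -2.10 and 0.26 for Abcb1a, with all libraries and without the 3. Leaving out homeostasis replicate 2 alone gave 2 of 10, Abcc3 (-1.54, adjusted p = 0.0396) and Atp8b1 (-1.10, adjusted p = 0.0449), where 1181 of 14746 genes, 8.01%, passed.

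**Figure D4:**
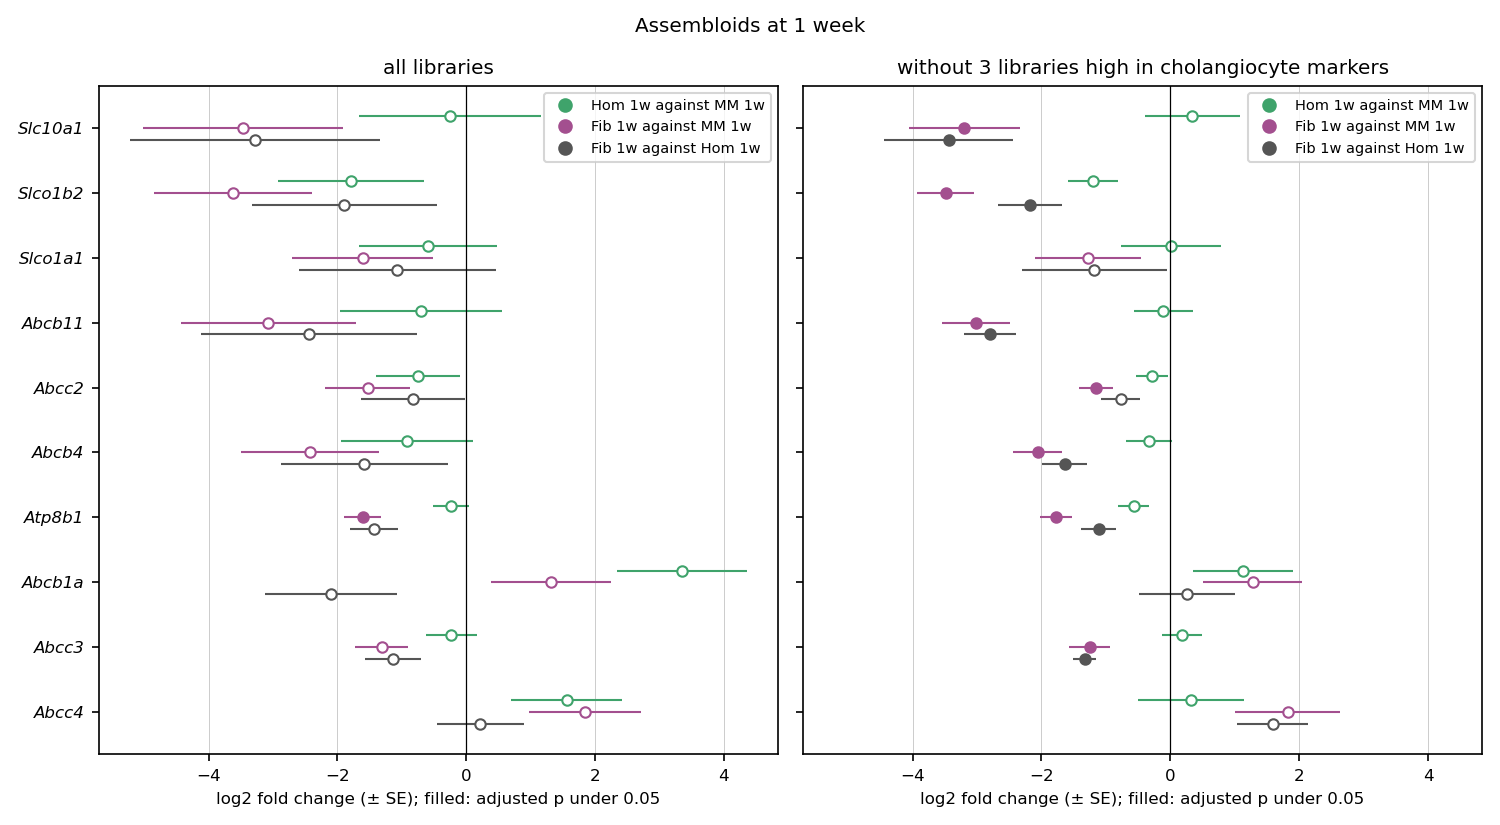
Log2 fold changes of each transporter among assembloids and MM HepOrgs at 1 week (points, edgeR estimate; bars, 1 SE; filled, adjusted p under 0.05), with all libraries and without the 3 libraries highest in cholangiocyte markers. With all libraries 1 point is filled (Atp8b1 in fibrosis-like assembloids against MM), and without the 3 the bars shorten and 13 points are filled. The 3 were chosen after seeing the data.

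Levels at 2.5 weeks were closer together in homeostasis assembloids. Abcb11 was 67.1, 58.9 and 87.8 CPM, Slc10a1 117, 103 and 247, Abcb4 283, 259 and 223 and Abcc3 393, 341 and 346. In the fibrosis-like libraries these were 50.5, 3.64 and 61.9 CPM for Abcb11, 60.6, 5.33 and 118 for Slc10a1, 154, 32.8 and 195 for Abcb4 and 285, 233 and 221 for Abcc3. Replicate 2, one of the 3 libraries named above, was the lowest fibrosis-like library for the first 3. Abcc4 was 39.3, 34.7 and 16.4 CPM in homeostasis and 66.6, 78.9 and 59.3 in fibrosis-like assembloids, without overlap. No transporter passed between the 2 kinds at 2.5 weeks (0 of 14253 genes by edgeR, 944 at an unadjusted p under 0.05, 273 or 1.92% by DESeq2), nor without the 3 libraries (155 of 14358 genes, 1.08%). For Abcc4 the log2 fold change was 1.17 with a 95% interval of -0.33 to 2.66, and for Abcb11 -0.88 with an interval of -4.43 to 2.67. The other members had log2 fold changes of -1.73 and -1.57 for Slco1a1, -1.34 and -0.77 for Slc10a1, -1.01 and -0.52 for Abcb4, -0.74 and -0.20 for Slco1b2, -0.56 and -0.48 for Abcc3, -0.33 and -0.17 for Atp8b1, -0.29 and 0.13 for Abcc2 and 0.17 and 0.19 for Abcb1a, with all libraries and without the 3. The difference between the 1-week and the 2.5-week contrast, tested directly, passed for 0 of 10, and for 0 of 14253 genes (278 at an unadjusted p under 0.05, 0 by DESeq2), and without the 3 libraries again for 0 of 10 and 0 of 14358 genes (1487 at an unadjusted p under 0.05).

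Slco1a1 and Abcc4 also differed between fresh hepatocytes and late assembloids of both kinds. Slco1a1 was 3.4, 0.972 and 1.27 CPM in homeostasis assembloids (log2 fold change -9.40, SE 1.51, adjusted p = 0.000896) and 1.19, 0.464 and 0.0632 in fibrosis-like ones (log2 fold change -11.10, SE 1.61, adjusted p = 0.000271). Abcc4 was higher, 16.6-fold (log2 fold change 4.06, SE 0.96, adjusted p = 0.0135) and 38.4-fold (log2 fold change 5.26, SE 1.01, adjusted p = 0.00214) by edgeR. In homeostasis assembloids these 2 of 10 passed (1381 of 14605 genes, 9.46%), and the Abcc4 call was lost without fresh replicate 1 or fresh replicate 3 (adjusted p = 0.0606 and 0.0705). On the log2(TPM + 1) scale by limma Abcc4 did not pass there (0.82, adjusted p = 0.44). In fibrosis-like assembloids 3 of 10 passed (2787 of 14605 genes, 19.1%), the third being Atp8b1 at 31.8, 26.6 and 40.1 CPM (log2 fold change -0.84, SE 0.29, adjusted p = 0.0499), whose call was lost when any 1 of the 6 libraries was left out (adjusted p = 0.0506 to 0.185).

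Without the 3 libraries, chosen after seeing the data, 6 of 10 passed in homeostasis assembloids (5691 of 14754 genes, 38.6%). In fibrosis-like assembloids 7 of 10 passed (6450 of 14754 genes, 43.7%). Abcb11 was then lower in both (log2 fold change -2.77, SE 0.44, adjusted p = 0.000245, and log2 fold change -3.09, SE 0.53, adjusted p = 0.000378), as were Slc10a1 (-2.62, adjusted p = 0.00954, and -3.39, adjusted p = 0.00605), Slco1b2 (-2.79, adjusted p = 4.35e-05, and -3.00, adjusted p = 9.14e-05) and Abcc2 (-0.94, adjusted p = 0.00503, and -0.82, adjusted p = 0.0198), all as log2 fold changes. Abcb4 passed in neither (0.21, adjusted p = 0.621, and -0.32, adjusted p = 0.494). With all libraries Abcb11, Slc10a1, Slco1b2 and Abcc2 passed in neither kind by edgeR. Their log2 fold changes in homeostasis assembloids were -2.79, -2.63, -2.8 and -0.96, with adjusted p from 0.161 to 0.454. In fibrosis-like assembloids they were -3.64, -3.95, -3.51 and -1.21, with adjusted p from 0.0538 to 0.222. None of the 3 belongs to the homeostasis group at 2.5 weeks or to fresh hepatocytes, so for that comparison the 2 fits differ in the scaling and in the spread estimated over all groups of the fit.

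Several transporters were higher in assembloid libraries where hepatocyte markers were higher. Across the 12 libraries, Pearson's r of the log2 level with the log2 summed hepatocyte markers was 0.94 for Abcb4, 0.92 for Abcc2, 0.90 for Slc10a1, 0.86 for Abcb11, Slco1b2 and Abcc3, and 0.68 for Slco1a1. It was 0.13 for Atp8b1, -0.59 for Abcb1a and -0.80 for Abcc4. With summed cholangiocyte markers r was 0.83 for Abcc4 and -0.85 for Abcb4. Over the 9 libraries left without the 3, r with hepatocyte markers was 0.98 for Abcb4, 0.97 for Abcb11, 0.96 for Slc10a1, 0.90 for Slco1b2, 0.86 for Abcc3 and -0.90 for Abcc4. The other members depended on the 3 libraries, with 0.43 for Abcc2, 0.14 for Slco1a1, -0.31 for Abcb1a and 0.89 for Atp8b1. With cholangiocyte markers r was then 0.84 for Abcc4 and -0.73 for Abcb4. These are descriptions over libraries that share a composition of 3 cell types. Cholangiocyte markers summed to 75.5 to 6350.0 CPM in homeostasis and 351 to 4489 in fibrosis-like libraries, mesenchymal markers over 9 genes to 129 to 2167 and 647 to 5270.5, and hepatocyte markers to 3107 to 103404 and 3153 to 54107. Their part in the assembloid results was not tested.

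**Figure D5:**
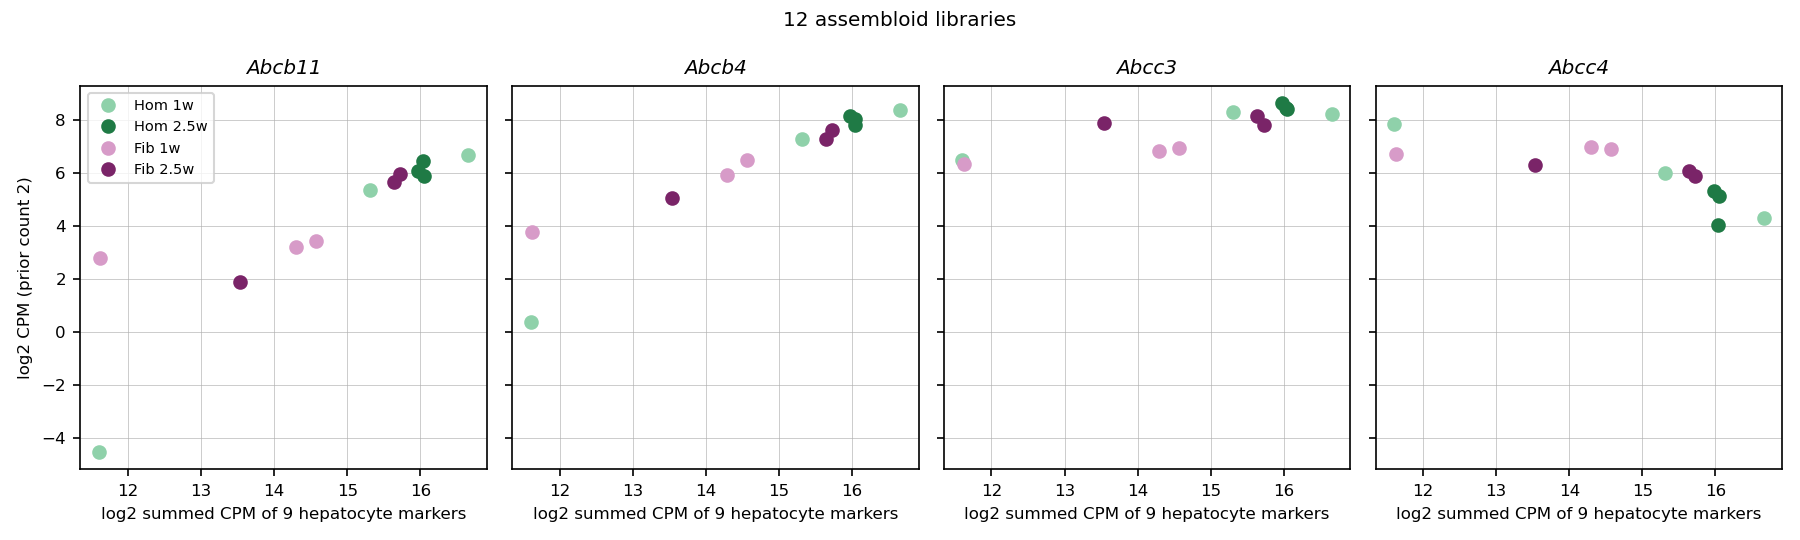
Level of 4 transporters in the 12 assembloid libraries (log2 CPM, prior count 2) against the log2 summed CPM of 9 hepatocyte markers, coloured by condition. Abcb11, Abcb4 and Abcc3 rise with the hepatocyte markers (r of 0.86, 0.94 and 0.86) and Abcc4 falls (r of -0.80; without the 3 libraries 0.97, 0.98, 0.86 and -0.90), and the 2 libraries farthest left are homeostasis replicate 2 and fibrosis-like replicate 3 at 1 week.

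Ordered by mean level over all 27 libraries, fresh hepatocytes ranked first of the 9 conditions for Slc10a1, Slco1b2, Slco1a1, Abcb11 and Abcc2, each without overlap with the next condition. Below that first place, no neighbouring conditions were separated for these 5 genes, from 155 ± 79.5 CPM (SD, n = 3) in homeostasis assembloids at 2.5 weeks down to 10.6 ± 7.99 in fibrosis-like assembloids at 1 week for Slc10a1. For Abcc4 fresh hepatocytes ranked last (1.78 ± 1.94 CPM), apart from the next condition, homeostasis assembloids at 2.5 weeks (30.1 ± 12.1). Abcb4 ran from 320.2 ± 44.8 CPM in MM at 2 weeks to 54.7 ± 38.8 in fibrosis-like assembloids at 1 week with every pair of neighbours overlapping. For Atp8b1 fibrosis-like assembloids at 1 week were last (18.3 ± 1.73 CPM) and did not overlap with the next, fibrosis-like assembloids at 2.5 weeks (32.8 ± 6.79). For Abcc3 the one gap between neighbours lay between HM-Wnt at 2 weeks (159 ± 47.8) and fibrosis-like assembloids at 1 week (105 ± 21.4), and for Abcb1a every pair of neighbours overlapped. With the 3 libraries left out, fresh hepatocytes ranked first for the same 5 genes and last for Abcc4, each without overlap, and fibrosis-like assembloids at 1 week, with 2 libraries, were last without overlap for Abcc2, Slco1b2, Abcb4 and Atp8b1. For Abcc3 there were then 3 gaps between neighbours, below homeostasis assembloids at 1 week, HM-Wnt at 2 weeks and fibrosis-like assembloids at 1 week.

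Levels can be set between genes only per length, here as CPM per kilobase of annotated exon, an approximate scale since the counts may span introns. On that scale fresh hepatocytes were led by the uptake carriers Slc10a1 (285 ± 17.5, SD, n = 3), Slco1b2 (268 ± 32.1) and Slco1a1 (241 ± 133), followed by Abcb11 (87 ± 42.4), Abcc2 (43 ± 5.03) and Abcc3 (36.3 ± 19.2). Abcb4 was 16.3 ± 6.42, Atp8b1 8.61 ± 0.946, Abcb1a 0.324 ± 0.31 and Abcc4 0.206 ± 0.224 CPM per kilobase. In MM HepOrgs at 2 weeks the first place was held by Abcc3 (51.4 ± 7.17), then Slco1b2 (42.9 ± 5.98) and Slc10a1 (39.7 ± 12.6), whose spreads overlapped. Abcb4 (23.7 ± 3.31) and Abcc2 (22.9 ± 4.77) lay above Abcb11 (14.2 ± 4.88) there, the reverse of their order in fresh hepatocytes. In HM-Wnt at 2 weeks Abcb11 was 2.16 ± 1.56 and Abcc4 8.36 ± 5.03 CPM per kilobase.

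Several members ran together over the 27 libraries. Abcb11 and Slc10a1 had the closest pattern (Pearson's r of log2 CPM 0.982), followed by Abcb11 with Slco1b2 (0.911) and Slc10a1 with Slco1b2 (0.905), and the most opposite pair was Abcc4 with Slco1a1 (-0.915). Over the 24 libraries left without the 3, these values were 0.963, 0.768, 0.759 and -0.902. Among well-expressed named genes (mean log2 CPM of 5 or more) outside the 10, Abcb11 was most like Pbld1 (0.983) and Rdh7 (0.979), and the same 2 genes were most like Slc10a1 (0.985 and 0.980). Abcb4 was most like Grhpr (0.979) and H2-Q10 (0.976), Abcc2 like Stard10 (0.926) and Gstp1 (0.916), Slco1b2 like Ugt2b1 (0.976) and Nudt7 (0.972), and Slco1a1 like Hibadh (0.946) and Pcmtd1 (0.939). Abcc4 was most like Iqgap1 (0.960) and Ccnd2 (0.955), Abcb1a like the keratins Krt18 (0.837) and Krt8 (0.827), Abcc3 like Aldh3a2 (0.827) and St6gal1 (0.825), and Atp8b1 like Pdk1 (0.895) and Mettl26 (0.859). Over those 24 libraries the r of these 20 pairs ran from 0.63 (Abcc2 with Gstp1) to 0.971 (Slc10a1 with Pbld1), and those of Abcb4 were 0.847 and 0.793. All these values describe libraries that share conditions and composition.

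Among other transporters of the same routes, most of those tested were lower in HepOrgs. Of 16 listed genes, 15 were tested against fresh hepatocytes, and 9, 9, 10 and 10 were lower in HM-Wnt at 1 and 2 weeks and MM at 1 and 2 weeks, with 2, 3, 2 and 2 higher, where 24.8%, 25.7%, 21.3% and 20% of all genes were lower. Abcg5 and Abcg8, which together form the canalicular sterol exporter, fell in all 4, with log2 fold changes of -2.86 (adjusted p = 0.000378) and -2.61 (adjusted p = 9.10e-05) in MM at 2 weeks by edgeR. Slco1a4, a relative of Slco1a1, was 149, 58.9 and 38.1 CPM in fresh hepatocytes and 0 to 1.08 in HepOrgs (log2 fold change -8.64, SE 0.94, adjusted p = 1.46e-05 in MM at 2 weeks). Abcb1b was 0.489 to 4.35 CPM in fresh hepatocytes and rose in HM-Wnt at 2 weeks (log2 fold change 1.63, SE 0.64, adjusted p = 0.0472). It was lower in MM than in HM-Wnt at 2 weeks (log2 fold change -1.96, SE 0.41, adjusted p = 0.0133). Slc51a, a subunit of the basolateral bile acid exporter, was at most 0.283 CPM in any library and was not tested, and its partner Slc51b was at most 3.29 CPM and passed nowhere. Tmem30a, the subunit that ATP8B1 needs to leave the endoplasmic reticulum, was 367, 273 and 414 CPM in fresh hepatocytes and lower in MM at 1 week (log2 fold change -0.75, SE 0.28, adjusted p = 0.0423) and in fibrosis-like assembloids at 2.5 weeks (log2 fold change -1.45, SE 0.31, adjusted p = 0.00428). When the 3 libraries were left out it was lower in the latter as well (-1.33, adjusted p = 0.00166) and also in homeostasis assembloids at 2.5 weeks (-0.94, adjusted p = 0.00706).

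Nr0b2, encoding SHP, a target of the bile acid receptor FXR, was 96.1, 158 and 91.7 CPM in fresh hepatocytes, 0.435 to 2.16 in HM-Wnt and 5.36 to 18.7 in MM. It was higher in MM than in HM-Wnt at 1 week (log2 fold change 2.50, SE 0.47, adjusted p = 0.0228) and at 2 weeks (log2 fold change 3.89, SE 0.49, adjusted p = 0.00118) by edgeR, and still below fresh hepatocytes in MM at 2 weeks (log2 fold change -2.92, SE 0.43, adjusted p = 0.000172). Nr1h4, encoding FXR, was 244, 124 and 163 CPM in fresh hepatocytes and fell in HM-Wnt at 1 week (log2 fold change -1.98, SE 0.44, adjusted p = 0.00212) and 2 weeks (log2 fold change -2.58, SE 0.45, adjusted p = 0.000356). In MM it was 127, 122 and 51.7 and 169, 162 and 99.5 CPM. It did not pass there against fresh hepatocytes in the fit without a replicate block. At 2 weeks it was higher in MM than in HM-Wnt (edgeR log2 fold change 2.27, SE 0.44, adjusted p = 0.00952). At 1 week its difference between media was 1.14 (adjusted p = 0.152), and with the replicate block it passed (log2 fold change 1.06, SE 0.19, adjusted p = 0.00987). Of the 16 listed regulators, 15 were tested, and 12, 11, 9 and 7 were lower than in fresh hepatocytes in the order above, with 2 higher each time, beside the shares of all genes given for the other transporters. At 2 weeks 6 of 15 were higher and 1 lower in MM than in HM-Wnt, where 6.84% of all genes were higher and 4.61% lower. Genes of the canalicular membrane and its trafficking went both ways. Of 16 tested, 6, 6, 8 and 5 were higher and 5, 5, 4 and 5 lower than in fresh hepatocytes, where 24.9%, 26.1%, 21.5% and 19.7% of all genes were higher and 24.8%, 25.7%, 21.3% and 20% lower, and their medians were 0.08 to 0.26. The medians of the other transporters were -2.43 to -1.53 and of the regulators -1.75 to -0.91.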

How the data were processed

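Bulk RNA-seq libraries (SMARTseq2, not stranded) were sequenced, aligned by the authors with STAR to GRCm39 and counted with featureCounts. The deposited table holds whole-number counts per gene and TPM that the authors derived from them, for 37 libraries. The 10 libraries that no sample title used here names were not used. The length column equals the whole gene span within 5% for 80.8% of 21705 genes, so intronic reads may be counted and TPM is relative to that length. Depth was 30289364 to 65348596 counts per library.

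Groups were taken from the titles, 3 libraries each. Counts were tested in R 4.3.3 with edgeR 4.0.16 (TMM scaling, low counts removed by filterByExpr at 10 per library and 15 in total, quasi-likelihood F test) with Benjamini-Hochberg adjustment over all genes tested in each of 12 comparisons and 2 differences of comparisons, at an adjusted p of 0.05. SE is the log2 fold change divided by the square root of F, and intervals are 95%. HepOrgs against fresh hepatocytes were fitted over these 5 groups, media over the 4 HepOrg groups, fibrosis-like against homeostasis over the 4 assembloid groups, and the other comparisons over fresh hepatocytes, MM HepOrgs and assembloids. Replicate numbers paired the libraries only among HepOrgs, where 18 of 18 same-numbered pairs had deviations correlated above 0.1 (0.184 to 0.593), a shared number in the titles being the only source, against 20 of 30 with fresh hepatocytes added, 8 of 18 in assembloids and 20 of 63 in the fit of 7 groups. Alternatives were RLE size factors, DESeq2 1.42.0, no filter, limma 3.58.1 on log2(TPM + 1) with at least 1 TPM in 3 libraries, the 2 groups compared alone, all 27 libraries, the replicate block and leaving out each library. Leaving out the 3 assembloid libraries highest in cholangiocyte markers was chosen after seeing the data. On simulated counts, edgeR recovered 94.4% of changed genes for MM at 1 week against fresh hepatocytes (13231 genes), 93.0% between media at 1 week (12934 genes), 94.0% between assembloids at 1 week (14140 genes) and 89.5% between homeostasis assembloids and MM (14283 genes). The simulation gave changed genes a log2 fold change of 2, gave all genes the same spread and held no outlying library. These shares are therefore not the power of the fits to the real libraries. A comparison without calls is not shown to be without change.

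The members and lists were chosen with earlier results of these data known. The 10 members were tested in each comparison, with values given for 9 partner genes of the lists, and for likeness the 2 genes with the highest r per member, leaving out unnamed genes. Promoters come from GENCODE vM39 starts on GRCm39. No location or sequence is given for Atp8b1.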

Additional observations from a re-analysis of the deposited data

How the results depend on the processing

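Over the 12 comparisons and 2 differences, 80 counts of transporters past the threshold stayed within 1.5 times the main count and 23 did not under alternatives other than leaving out a single library. Of the log2 fold changes in the 12 comparisons, 773 kept direction and side of the threshold, 70 newly passed, 27 no longer passed and 20 turned. For the difference in the effect of the medium between times the log2 values over all alternatives ranged from 0.41 to 1.74 for Abcb11, 0.46 to 1.97 for Slc10a1 and -1.12 to -0.50 for Abcc3. For the difference between assembloid contrasts, where 0 passed, directions also turned, with the block for Abcb11 (-0.04), Abcb4 (-0.17) and Slco1b2 (-0.44) from 1.55, 0.57 and 1.16. The share of all genes called stands in parentheses after each of the next counts. With all 27 libraries in 1 fit, 2 passed in MM at 1 week (13.7%) and 2 in MM at 2 weeks (12.9%) against fresh hepatocytes, 0 between media at 1 week (0%) and 0 at 2 weeks (0.0478%), 1 between fibrosis-like and homeostasis assembloids at 1 week (6.21%), and 2 in fibrosis-like assembloids against MM at 1 week (7.29%). DESeq2 called 2 between media at 1 week (10.9%), 5 at 2 weeks (19.2%), 1 between the 2 assembloids at 1 week (6.08%), 1 in homeostasis (7.87%) and 3 in fibrosis-like assembloids (15.2%) against MM, and 6 in fibrosis-like assembloids against fresh hepatocytes (27.7%). With limma on log2(TPM + 1), 2 passed in fibrosis-like assembloids against MM (27.2%) and 6 against fresh hepatocytes (36.1%). Fitting only the groups compared gave 8 in fibrosis-like assembloids against MM (25.5%), and 6 in homeostasis (37.2%) and 6 in fibrosis-like assembloids (39.9%) against fresh hepatocytes. With the replicate block, 3 passed between media at 1 week (9.48%) and 6 at 2 weeks (19.6%). Where the numbers do not pair the libraries, the block moved no count by over 1.5 times. MM at 2 weeks against fresh hepatocytes went from 6 (39.7%) to 7 (42.2%), with Abcb4 (edgeR log2 fold change 0.56, adjusted p = 0.0403). Nr1h4 in MM at 1 week against fresh hepatocytes also passed with the block (-0.96, adjusted p = 0.016). Without the 3 libraries highest in cholangiocyte markers, 6 passed between assembloids at 1 week (17.7%) and 7 in fibrosis-like assembloids against MM (27.3%). Against fresh hepatocytes 6 passed in homeostasis (38.6%) and 7 in fibrosis-like assembloids (43.7%). Beyond fewer libraries and other estimates of spread, the cause was not tested.

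Leaving out 1 library at a time gave 6 to 7 called in HM-Wnt at 1 week and 6 to 7 at 2 weeks, 5 to 6 in MM at 1 week and 6 to 8 at 2 weeks against fresh hepatocytes, 1 between media at 1 week, and 0 to 3 at 2 weeks. It gave 0 to 2 between assembloids at 1 week, 0 at 2.5 weeks, 0 to 1 in homeostasis and 0 to 1 in fibrosis-like assembloids against MM, and 1 to 2 in homeostasis and 2 in fibrosis-like assembloids against fresh hepatocytes. The differences between times stayed at 0. With all libraries, the shares of all genes called were 49.7%, 51.8%, 42.8% and 39.7% against fresh hepatocytes, and 2.98% and 11.5% between media. For assembloids they were 0% between kinds at either time, 0% and 2.85% against MM, and 9.46% and 19.1% against fresh hepatocytes. The shares in each fit without 1 library are not given, so these counts cannot be set against all genes.

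Directions turned on the log2(TPM + 1) scale for Atp8b1 in HM-Wnt at 1 week (0.22) and 2 weeks (0.56), MM at 1 week (0.39) and fibrosis-like assembloids (0.10) against fresh hepatocytes, for Abcb4 (0.73) and Abcc3 (0.43) in HM-Wnt at 2 weeks, and for Abcc2 in MM at 1 week (0.08). On that scale they also turned for Atp8b1 between media at 2 weeks (-0.20), for Abcb4 (0.14) and Slco1b2 (0.23) between assembloids at 1 week, and for Abcc2 (0.11), Abcc3 (0.02) and Atp8b1 (0.17) at 2.5 weeks. It moved the median of all genes by 0.81 and 0.49 between assembloids at the 2 times, by -0.30 between media at 2 weeks, and by 0.85 between fibrosis-like assembloids and fresh hepatocytes. Atp8b1 in MM at 2 weeks against fresh hepatocytes was -0.01 with all 27 libraries and -0.02 with the block. Without the 3 libraries, Abcb1a between assembloids at 1 week was 0.26 and Abcc2 at 2.5 weeks 0.13, and in homeostasis assembloids against MM Abcc3 was 0.18, Slc10a1 0.34 and Slco1a1 0.01.

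Leaving out 1 library turned the direction of some values, none of which had passed the threshold. Against fresh hepatocytes the log2 fold change ranged from -0.10 to 0.44 for Abcb4 and -0.21 to 1.35 for Abcb1a in HM-Wnt at 1 week, from -0.40 to 0.14 for Abcb4, -0.10 to 1.73 for Abcb1a and -0.19 to 0.03 for Atp8b1 at 2 weeks, from -0.01 to 0.75 for Abcc3, -0.02 to 1.55 for Abcb1a and -0.15 to 0.07 for Atp8b1 in MM at 1 week, and from -0.13 to 0.21 for Atp8b1 at 2 weeks. Between media it ranged from -0.03 to 0.18 for Abcc2 and -0.15 to 0.52 for Abcb1a at 1 week, and from -0.18 to 0.09 for Abcc2, -0.17 to 1.03 for Abcb1a and -0.09 to 0.25 for Atp8b1 at 2 weeks. Between assembloids it ranged from -0.23 to 1.47 for Abcc4 and -2.55 to 0.13 for Abcb1a at 1 week, and from -0.70 to 0.10 for Abcc2 and -0.27 to 0.60 for Abcb1a at 2.5 weeks. In homeostasis assembloids against MM it ranged from -0.52 to 0.19 for Abcc3, -3.09 to 0.36 for Slc10a1 and -1.60 to 0.01 for Slco1a1, the upper values being those without homeostasis replicate 2. Against fresh hepatocytes it ranged from -0.07 to 0.48 for Abcb4 in homeostasis and -0.15 to 0.62 for Abcc3 in fibrosis-like assembloids. Depth limits Abcb1a, at under 10 CPM in 26 of 27 libraries, and Slco1a1 in cultures, at 0 to 180 counts. Genes counted over introns and without strand limit the levels of Abcb4 and Slc10a1.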

Other observations

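Marker and pathway lists gave the following counts beside the transporters, by edgeR, to be read beside the shares of all genes called in the same comparisons. Of 9 hepatocyte markers, 4, 7, 6 and 7 were lower than in fresh hepatocytes in HM-Wnt at 1 and 2 weeks and MM at 1 and 2 weeks, and 1 was higher in MM at 2 weeks. All 8 endothelial markers were lower in each of these 4. Of 6 cholangiocyte markers, 3 were higher in HM-Wnt at 1 week and 5 in each of the other 3, and of 9 mesenchymal markers 1, 2, 2 and 2 were higher. Of 7 immune markers tested, 6, 5, 4 and 2 were lower and 1 was higher each time. In the same order, 24.8%, 25.7%, 21.3% and 20% of all genes were lower and 24.9%, 26.1%, 21.5% and 19.7% higher. Between media, 1 hepatocyte marker at 1 week and 3 at 2 weeks were higher in MM, and no cholangiocyte, mesenchymal, endothelial or immune marker passed. Over all genes 1.76% were higher in MM at 1 week and 6.84% at 2 weeks.

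In late assembloids against fresh hepatocytes, counts over the lists were higher when the 3 assembloid libraries highest in cholangiocyte markers were left out, an alternative chosen after seeing the data. The counts over 15 other transporters were 3 lower and 1 higher in homeostasis assembloids, or 11 lower and 2 higher without the 3. In fibrosis-like assembloids they were 7 lower and 2 higher, or 11 lower and 2 higher without the 3. The counts over 16 bile acid regulators were 2 lower and 2 higher in homeostasis assembloids, or 8 lower and 2 higher without the 3. In fibrosis-like assembloids they were 5 lower and 3 higher, or 11 lower and 3 higher without the 3. The counts over 16 genes of the canalicular membrane and its trafficking were 2 lower and 2 higher in homeostasis assembloids, or 6 lower and 5 higher without the 3. In fibrosis-like assembloids they were 2 lower and 4 higher, or 6 lower and 7 higher without the 3. Over all genes 3.87% were lower and 5.59% higher in homeostasis assembloids, or 19% and 19.6% without the 3, and 6.3% and 12.8% in fibrosis-like assembloids, or 19.5% and 24.2% without the 3. The SHP gene Nr0b2 was lower in both (log2 fold change -3.29, SE 0.66, adjusted p = 0.00503, and log2 fold change -3.53, SE 0.67, adjusted p = 0.00184), as was the uptake carrier gene Slco1a4 (log2 fold change -8.02, SE 1.88, adjusted p = 0.013, and log2 fold change -7.85, SE 1.87, adjusted p = 0.00799), and without the 3 libraries the log2 fold changes were -3.27 (adjusted p = 2.85e-06) and -3.00 (adjusted p = 2.25e-05) for Nr0b2 and -7.97 (adjusted p = 0.000119) and -7.57 (adjusted p = 0.000548) for Slco1a4.

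Between the 2 kinds of assembloid at 1 week no gene of these 3 lists passed with all libraries. Leaving out the 3, 4 lower and 1 higher of 16 other transporters, 8 lower and 0 higher of 16 regulators and 3 lower and 2 higher of 16 canalicular genes passed in fibrosis-like assembloids, where 10.2% of all genes were lower and 7.57% higher. At 2.5 weeks 0 passed in either fit. In fibrosis-like assembloids against MM at 1 week 1 regulator and 1 canalicular gene were lower with all libraries. Leaving out the 3, 5 lower and 1 higher of 15 other transporters, 9 lower and 1 higher of 16 regulators and 5 lower and 2 higher of 16 canalicular genes passed, where 15.1% of all genes were lower and 12.2% higher. In homeostasis assembloids against MM at 1 week 0 passed in either fit.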
